A study of Mus musculus with 25 samples.

Results

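The glutathione S-transferase genes described here are 10 genes of mouse liver, taken by name from the array's annotation: Gstp1 and Gstp3 of the pi class, Gstm1, Gstm2, Gstm3, Gstm4 and Gstm6 of the mu class, and Gsta2, Gsta3 and Gsta4 of the alpha class. Of these 10 genes, 9 had a probe set of their own and passed the filter on dim signals, out of 19938 genes with a probe set of their own on the array and 15951 tested. Gsta2 was read only by 4 probe sets that it shares with Gsta1, Gm3776 and Gm10639, and 2 further probe sets are shared by Gstp1 and Gstp2. Shared probe sets cannot be given to 1 of their genes and are described apart from the members.

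Glutathione S-transferases join the tripeptide glutathione to electrophilic compounds, which include reactive products of carcinogens and of oxidised lipids, and the conjugates are then exported from the cell and broken down. The cytosolic enzymes fall into classes by sequence, and the pi, mu and alpha classes make up much of the transferase protein of the liver. Several of their genes are known targets of Nrf2 (gene Nfe2l2), a transcription factor that is released from its inhibitor Keap1 when cells meet electrophiles, and of the nuclear receptors CAR (Nr1i3) and PXR (Nr1i2).

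Total RNA of frozen liver from mice of strain FVB;129 was measured on 25 arrays. Genes were deleted by an albumin-promoter Cre transgene, whose activity is restricted largely to hepatocytes, acting on loxP sites in Rb (RbKO), in p53 (p53KO) or in both (DKO). The labels give the Rb and p53 status of WT as wild type and do not say whether these animals carried Cre or loxP sites. Diethylnitrosamine (DEN), a carcinogen that hepatocytes turn into an alkylating agent, was given to pups of 14 days as 1 intraperitoneal dose (20 mg/kg), 24 h before the liver was collected. The 6 groups were untreated WT (n = 3), untreated DKO (n = 3), and DEN-treated WT (n = 5), p53KO (n = 5), RbKO (n = 4) and DKO (n = 5). Controls are labelled as having had no treatment, although the design text mentions saline. Sexes are not stated, and the labels do not state that each replicate was its own animal. All p-values therefore refer to the variation among arrays within groups, which may be technical. In fits of all groups this variation was pooled over the 6 groups, so it is not that of the groups compared alone.

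The values are log2 signals, on which a difference of 1 is a factor of 2. By their names, the arrays fall into set 1 (16 arrays), set 2 (4) and set 3 (5). Set 1 held all groups, set 2 held 1 untreated WT, 2 DEN WT and 1 DEN RbKO array, and set 3 held 3 DEN p53KO and 2 DEN DKO arrays. Differences are from limma over all arrays with the set as a term, and a gene was called where the Benjamini-Hochberg adjusted p over the 15951 genes was under 0.05. Among hepatocyte genes, Alb lay between 12.23 and 12.91 and Ttr between 11.84 and 12.39 over all arrays, while Tat ranged from 8.78 to 11.95 and Hnf4a from 6.95 to 9.29. Rb1 was called by limma in 0 of the 11 comparisons, with an unadjusted p under 0.05 in 2. Its signal was lower on all untreated DKO arrays (4.76 to 5.02) than on the untreated WT arrays (5.30 to 5.76), and lay between 5.55 and 6.28 on the DEN RbKO arrays against 5.04 to 6.02 on the DEN WT arrays. Whether its probe set lies in the deleted part is not known. Xist, which is expressed in females, was between 9.70 and 10.55 on 8 arrays and between 2.87 and 4.15 on the other 17. It was high on 2 of 3 untreated WT, 2 of 5 p53KO, 2 of 4 RbKO and 2 of 5 DEN DKO arrays and on none of the 3 untreated DKO and 5 DEN WT arrays. In bulk liver, fewer cells of a type and less RNA per cell cannot be told apart.

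Gstp1 rose after DEN in WT liver and its response was lower in DKO liver, and most of the members were lower in DEN-treated DKO than in DEN-treated WT. In WT over all arrays, Gstp1, Gstm3, Gstm4 and Gstm6 were called higher after DEN, which is 4 of 9 members. Of all genes tested, 2.08% were called higher and 3.99% in either direction. Within set 1, Gstp1 and Gstm3 were called higher, while Gstm4 (limma adjusted p = 0.0922) and Gstm6 (adjusted p = 0.430) were not. Gstp3 was called lower there (-0.88, adjusted p = 0.0108). In that fit 1747 of the 15951 genes were called in either direction. In DKO, Gstp3 fell and Gstm3 rose, which is 2 of 9 members, where 21% of all genes were called, 4.49% higher and 16.5% lower. After DEN, members called lower than in WT numbered 2 of 9 in p53KO, 6 of 9 in RbKO and 7 of 9 in DKO, where 1.07%, 6.13% and 9.14% of all genes were called lower. The count in RbKO changed with the fit: it was 2 without the set 2 arrays or without the set term, 3 within set 1, and 3 to 7 with 1 array left out. Genes called in either direction numbered 193, 390 and 532 of 15951 in the first 3 of these fits. The 3 comparisons with DEN WT share its 5 arrays, which were also the treated arrays of the WT response. Gsta3 and Gstm2 were called in none of the 11 comparisons.

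**Figure D1:**
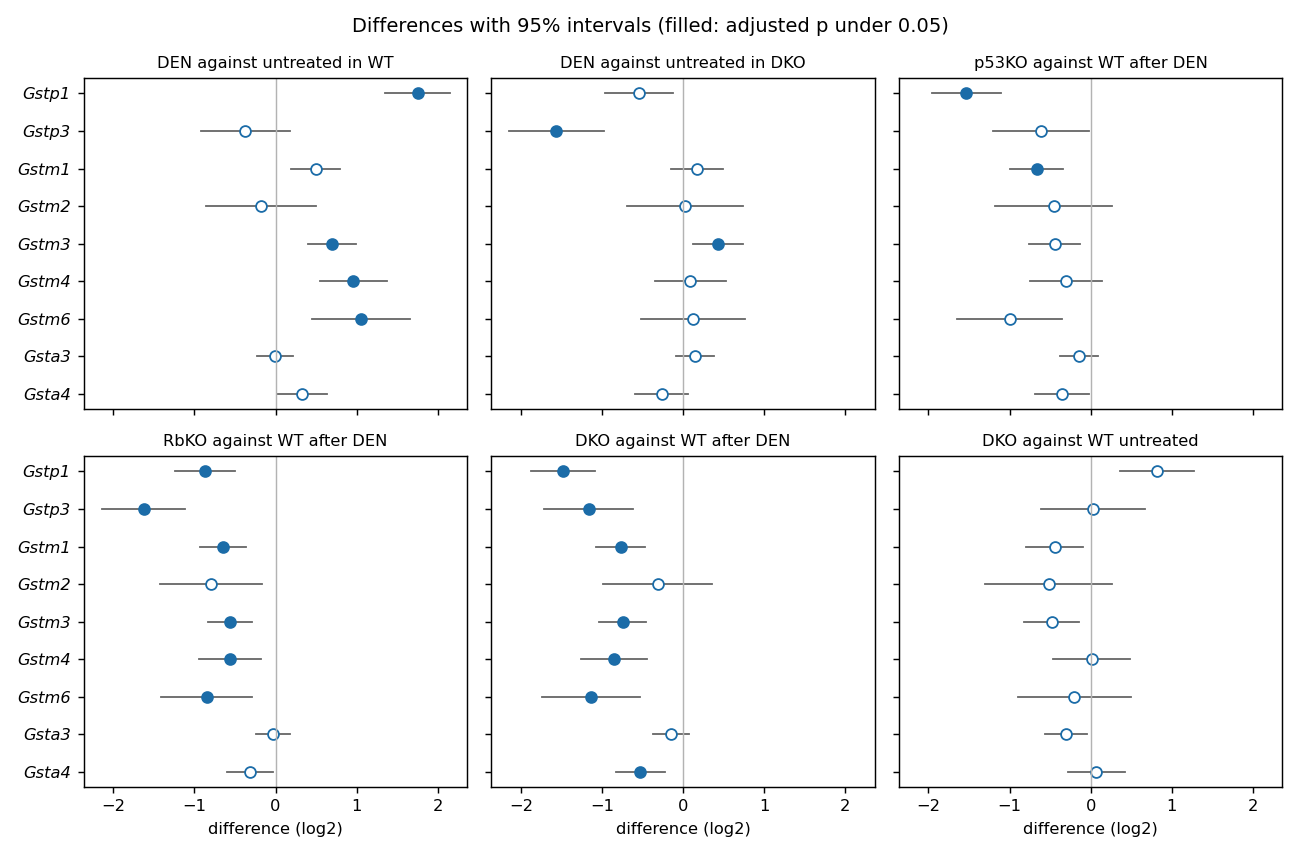
Difference in log2 signal (x axis) of the 9 members with a probe set of their own (y axis) in 6 comparisons, with the 95% interval of limma as a line. Filled points have an adjusted p under 0.05. All 9 points lie left of 0 in each of the 3 comparisons of a knockout with WT after DEN.

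Gstp1, the main pi class transferase, lies on chr19:4035411-4037912 of GRCm38.p6. It carried the largest differences of the members in WT and between the responses. In untreated WT its log2 signal was 9.71 and 10.05 in set 1 and 7.80 in set 2, and after DEN it was 10.89, 11.40 and 11.17 in set 1 and 10.24 and 10.56 in set 2. Every DEN array was above every untreated array. The difference was 1.75 (SE 0.19, 95% interval 1.35 to 2.15, limma adjusted p = 4.75e-06), a 3.37-fold higher signal, with 1.28 (adjusted p = 0.000230) within set 1 and 2.60 between the 2 DEN arrays and the 1 untreated array of set 2.

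In untreated DKO, Gstp1 was at 10.52, 10.53 and 10.20, above all 3 untreated WT arrays, but the difference of 0.82 (SE 0.22) was not called (limma adjusted p = 0.0748). After DEN the DKO arrays read 10.05, 9.82 and 9.74 in set 1 and 9.52 and 9.74 in set 3. All 5 were below the untreated DKO arrays, at a difference of -0.54 (SE 0.21) that was not called over all arrays (adjusted p = 0.0603) and was called within set 1 (-0.55, adjusted p = 0.0201). The response of DKO minus that of WT was -2.30 (SE 0.28, interval -2.88 to -1.72, limma adjusted p = 6.35e-05). In this comparison 8.54% of all genes were called lower and 9.91% in either direction, and Gstp1 was the 1 member of 9 called. The value was -1.82 within set 1, and it stayed called in all 28 alternative fits, between -2.53 and -1.82.

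The sexes of the animals, as far as Xist shows them, differed between the groups of this comparison. Gstp1 is known as a gene with higher expression in the livers of adult male mice. Xist was high on the untreated WT arrays at 9.71 and 7.80 and low on the one at 10.05, which lay below all 5 DEN WT arrays. With Xist as a covariate the WT response of Gstp1 was 1.57 (limma adjusted p = 7.37e-05) and the difference between the responses -2.00 (adjusted p = 0.00106). Xist was low on all DEN WT and all untreated DKO arrays, so the covariate rests on the other groups. Whether sex has a part in these responses was not tested.

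Among the DEN-treated livers, Gstp1 read 9.57 and 10.07 in set 1 and 9.59, 9.78 and 9.34 in set 3 in p53KO, and 10.62, 10.25 and 10.61 in set 1 and 9.19 in set 2 in RbKO. All p53KO and all DKO arrays lay below all WT arrays, and the RbKO arrays overlapped with WT across sets but not within set 1. The differences from WT were -1.53 (SE 0.21, limma adjusted p = 0.000310) in p53KO, -0.87 (SE 0.18, adjusted p = 0.00391) in RbKO and -1.48 (SE 0.19, adjusted p = 6.53e-05) in DKO. The call in RbKO was lost without the set term and without the set 2 arrays. DKO and p53KO differed by 0.05 (interval -0.30 to 0.41, adjusted p = 0.915), and DKO and RbKO by -0.61 (interval -1.01 to -0.21, adjusted p = 0.137). With set effects removed, the group means from high to low were DEN WT at 11.35, DEN RbKO at 10.48 and untreated DKO at 10.42. Then came DEN DKO at 9.87, DEN p53KO at 9.82 and untreated WT at 9.60. Within set 1 alone, untreated WT was not lowest, at 9.88 against 9.87 in DEN DKO and 9.82 in DEN p53KO.

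**Figure D2:**
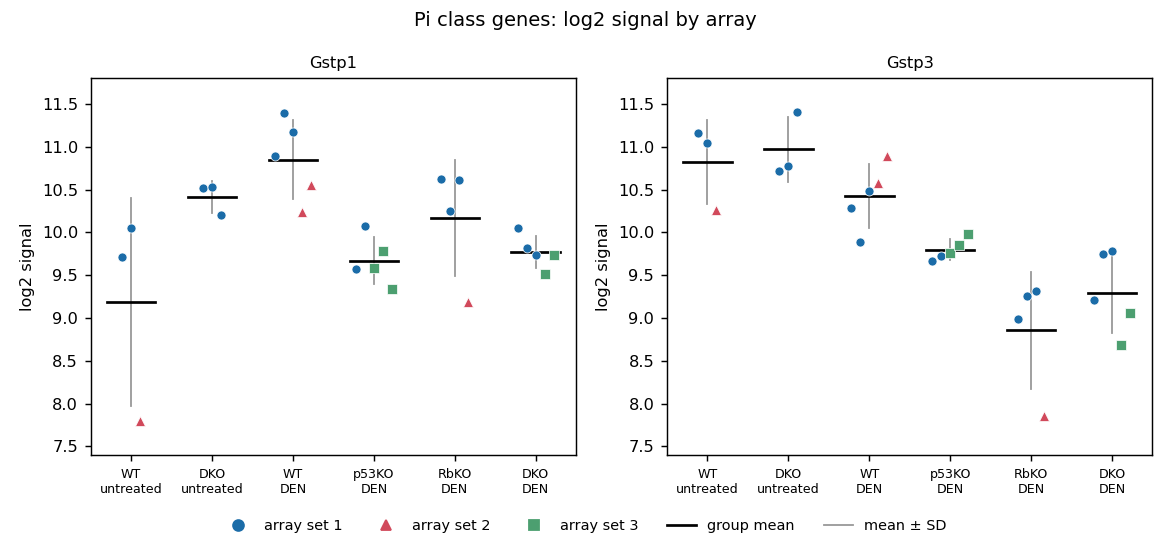
Log2 signal (y axis) of Gstp1 (left) and Gstp3 (right) on each of the 25 arrays by group (x axis), with the set of the array as colour and shape, the group mean as a black line and the SD as a grey line. Gstp1 was highest in DEN-treated WT, and Gstp3 was lower on all 5 DEN-treated DKO arrays (8.68 to 9.78) than on the 3 untreated DKO arrays (10.72 to 11.41).

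Gstp3, a second pi class gene close to Gstp1 on chr19:4057470-4059605, took a different course. It was at 11.16 and 11.05 in set 1 and 10.26 in set 2 in untreated WT, and at 10.72, 10.78 and 11.41 in untreated DKO. After DEN the WT arrays read 10.29, 9.89 and 10.49 in set 1 and 10.58 and 10.89 in set 2, a difference of -0.37 (SE 0.27, limma adjusted p = 0.535) that differed between the sets, at -0.88 (adjusted p = 0.0108) within set 1 and 0.48 between the arrays of set 2. In DKO it fell after DEN to 9.21, 9.75 and 9.78 in set 1 and 8.68 and 9.06 in set 3. The difference was -1.56 (SE 0.29, interval -2.15 to -0.98, adjusted p = 0.000296), a 2.96-fold lower signal, with no overlap between the groups, in a comparison in which 16.5% of all genes were called lower. The difference between the responses, -1.19 (SE 0.39), was not called (limma adjusted p = 0.0527), but was in 6 of 28 alternative fits. Within set 1 this difference was -0.51 (adjusted p = 0.316).

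The group mean of Gstp3 was lowest in DEN-treated RbKO, whose arrays were at 8.99, 9.26 and 9.32 in set 1 and 7.85 in set 2. All 4 lay below all DEN WT arrays, at -1.63 (SE 0.25, limma adjusted p = 0.00131), a 3.09-fold lower signal, and at -1.03 (adjusted p = 0.0101) within set 1. DKO minus WT was -1.17 (SE 0.27, adjusted p = 0.00570) and -0.64 within set 1 (adjusted p = 0.0361), and the call was lost in a fit of the 2 groups alone. In p53KO the arrays were close together, at 9.67 and 9.73 in set 1 and 9.76, 9.85 and 9.98 in set 3, and -0.61 (SE 0.29) from WT was not called (adjusted p = 0.285). All 5 p53KO arrays were above all 4 RbKO arrays, but the difference of 1.02 (interval 0.42 to 1.62) was not called (adjusted p = 0.124).

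The promoter of Gstp1 is shown because this gene had the largest response of the members. The sequence is the 250 bases before the start at 4037912, 5′ to 3′ on the minus strand of GRCm38.p6 (chr19:4037913-4038162), from RefSeq. Capitals mark TGANNNNGC on either strand, the core letters of the antioxidant response element that Nrf2 binds with small Maf proteins.
Gstp1 promoter: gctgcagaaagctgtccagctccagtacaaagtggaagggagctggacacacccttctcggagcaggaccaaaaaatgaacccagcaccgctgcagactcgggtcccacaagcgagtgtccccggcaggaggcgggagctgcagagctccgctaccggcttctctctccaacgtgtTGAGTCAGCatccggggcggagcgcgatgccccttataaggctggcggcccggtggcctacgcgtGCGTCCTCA
The window held 2 matches. That at 74 to 66 bases before the start reads TGAGTCAGC and overlaps with TGAGTCA, the element of AP-1, and that at 9 to 1 bases before the start lies on the other strand. The Gstp3 window lies before a start at 4059447, inside the span of the gene, whose RefSeq end is further upstream, and 158 of its 250 bases lie within that span. It held 1 match of TGANNNNGC, 152 to 144 bases before that start and within the gene, and no TGAGTCA. Windows were at hand for 9 of the 10 members, and 5 of these genes had a TGANNNNGC match, namely Gstp1, Gstp3, Gstm3, Gstm4 and Gsta3, while only Gstp1 had TGAGTCA. Of all 32851 windows of that length, 35.2% held TGANNNNGC and 4.46% held TGAGTCA on either strand. A match of letters is no measured binding.

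The 5 mu class members lie within 1 cluster on chromosome 3, from 107938847 to 108045179 in GRCm38.p6. With set effects removed, the group mean was highest in DEN-treated WT for all of them except Gstm2, which was highest in untreated WT. Gstm3, Gstm4 and Gstm6 were called higher in WT after DEN over all arrays, but only Gstm3 within set 1. With Gstm1, they were called lower in RbKO and DKO than in WT after DEN over all arrays. Gstm1, a major mu class enzyme of mouse liver, was at 10.34 and 10.23 in set 1 and 10.49 in set 2 in untreated WT and at 9.69, 9.77 and 9.62 in untreated DKO. Although these groups did not overlap, the difference of -0.45 (SE 0.17) was not called over all arrays (limma adjusted p = 0.251), whereas -0.59 within set 1 was (adjusted p = 0.0163). Of all genes, 1.11% were called in this comparison, and 0 of 9 members in limma, of which 4 had an unadjusted p under 0.05.

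After DEN, Gstm1 in WT read 10.14, 10.61 and 10.62 in set 1 and 11.45 and 11.62 in set 2. The DEN arrays of set 2 were thus the 2 highest of all 25, and the difference from untreated WT, 0.49 (SE 0.15), was not called (limma adjusted p = 0.0606) and was 0.17 within set 1. The knockouts lay lower, at 9.72 to 10.02 with a median of 9.92 in p53KO, 9.93 to 10.37 with a median of 10.14 in RbKO, and 9.62 to 9.99 with a median of 9.78 in DKO. The differences from WT were -0.67 (SE 0.16, adjusted p = 0.0314), -0.65 (SE 0.14, adjusted p = 0.00449) and -0.77 (SE 0.15, adjusted p = 0.00140). The call in p53KO was lost in 5 of 22 alternative fits, among them those without either set 1 array of p53KO (replicates 1 and 2) and without DEN WT replicate 2, and the call in RbKO without its set 2 array (replicate 4).

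Gstm3, a mu class gene known to respond to Nrf2 activators, was read by 2 probe sets of its own. On the brighter one, untreated WT was at 7.78, 7.58 and 7.66 and rose after DEN to 8.05, 8.41 and 8.05 in set 1 and 8.38 and 9.11 in set 2, without overlap. The difference was 0.70 (SE 0.14, limma adjusted p = 0.00442) and 0.49 (adjusted p = 0.0175) within set 1. The call was lost without the set term, in a fit of these 2 groups alone and without untreated WT replicate 3, the set 2 array of that group.

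In untreated DKO, Gstm3 was at 7.10, 6.99 and 7.10, below untreated WT without a call over all arrays (-0.48, limma adjusted p = 0.170). It was called in 5 of 18 alternative fits, among them that within set 1 (-0.62, adjusted p = 0.00599). After DEN it rose in DKO to 7.55, 7.39 and 7.48 in set 1 while the set 3 arrays stood at 7.03 and 7.22. That rise of 0.43 (SE 0.15) was called (limma adjusted p = 0.0393), but 10 of 20 alternative fits lost the call. The 2 responses differed by -0.26 (interval -0.69 to 0.16, adjusted p = 0.479). After DEN, Gstm3 was lower than in WT, at -0.56 (SE 0.13, adjusted p = 0.00820) in RbKO and -0.74 (SE 0.14, adjusted p = 0.00124) in DKO, and -0.44 (SE 0.15) in p53KO was not called (adjusted p = 0.120). The call in RbKO was lost without the set term and in a fit of the 2 groups alone. All DKO arrays were below all RbKO arrays, at a difference of -0.19 that was not called (adjusted p = 0.588).

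The second Gstm3 probe set, fitted among all 18502 listed probe sets above the filter, gave calls over all arrays that the brighter one did not. It was at 7.14, 6.77 and 6.68 in untreated WT and at 5.65, 5.55 and 5.82 in untreated DKO, a difference of -1.20 (SE 0.22, limma adjusted p = 0.00577, with 1.12% of all listed probe sets called) that was lost without untreated WT replicate 1. In DKO it rose by 0.85 (SE 0.20, adjusted p = 0.00331) after DEN, as it did by 0.97 (SE 0.19, adjusted p = 0.00331) in WT. After DEN the p53KO arrays, at 7.33 to 7.72, all lay above the DKO arrays, at 6.41 to 6.78, and DKO minus p53KO was -0.88 (SE 0.17, adjusted p = 0.00644, with 2.48% called). The brighter probe set gave -0.30 there (SE 0.13, adjusted p = 0.217). The 2 probe sets correlated at r = 0.755 over the 25 arrays and at 0.942 after set effects were removed, and which of them reads the gene better was not tested.

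**Figure D3:**
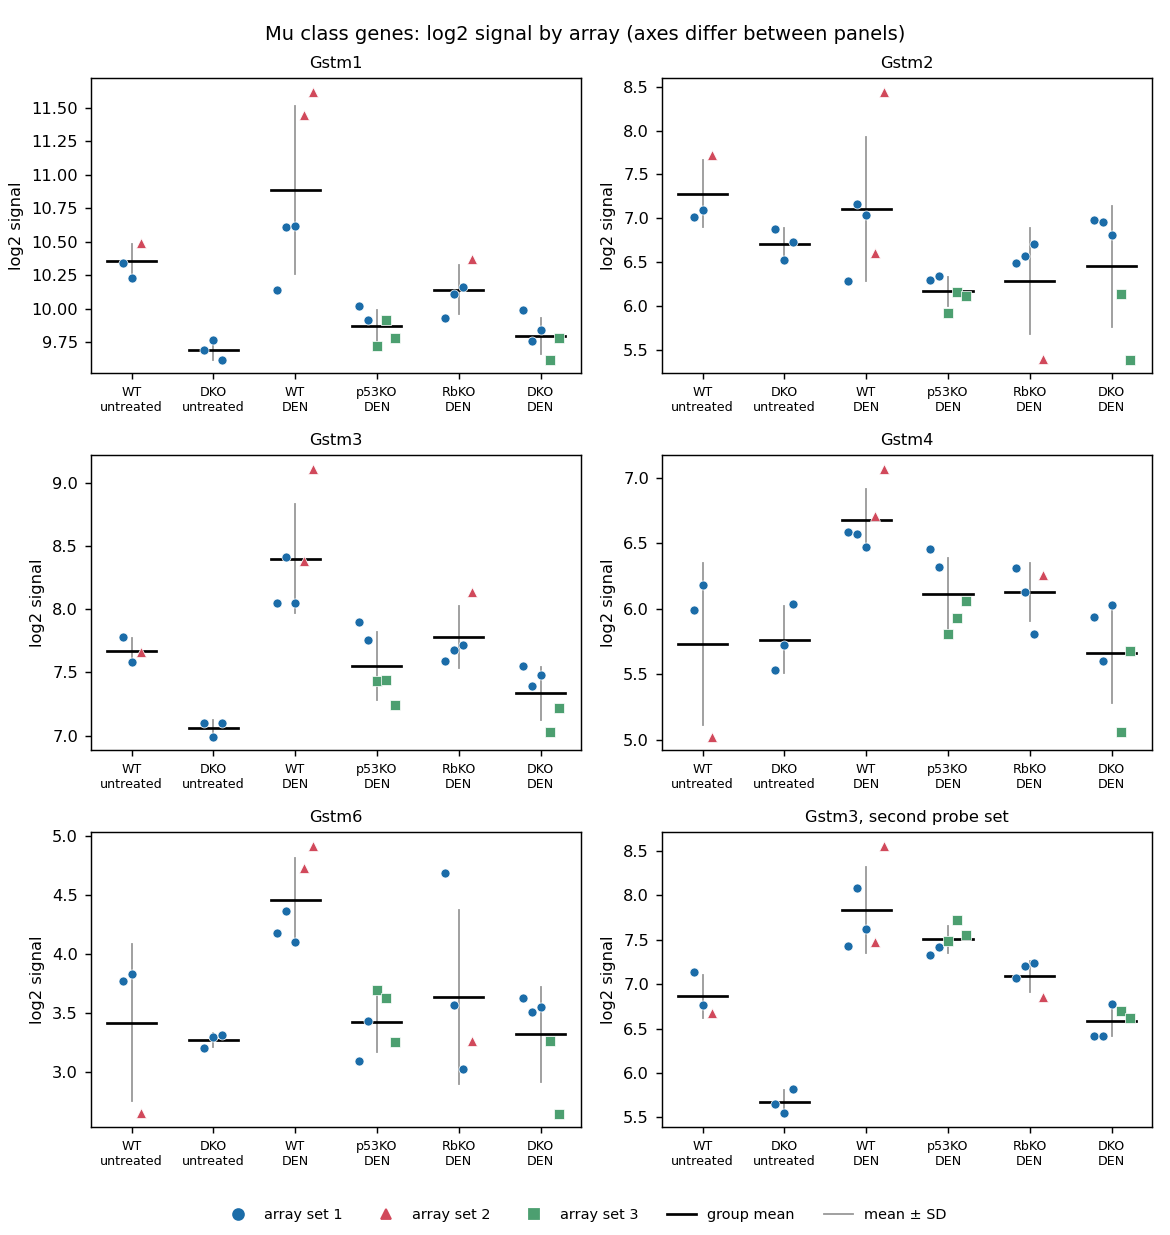
Log2 signal (y axis, with its own range in each panel) of the 5 mu class members and of the second Gstm3 probe set on each array by group (x axis), with set, group mean and SD as in the plot of the pi class. The untreated DKO arrays of Gstm1, of Gstm2 and of both Gstm3 probe sets lie below the untreated WT arrays.

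Gstm4, another mu class transferase, was at 5.99 and 6.18 in set 1 and 5.02 in set 2 in untreated WT and rose to 6.59, 6.57 and 6.47 in set 1 and 6.71 and 7.07 in set 2 after DEN. No arrays overlapped, and the difference was 0.96 (SE 0.20, limma adjusted p = 0.00582). Within set 1 it was 0.46 (adjusted p = 0.0922), and without untreated WT replicate 3, the array at 5.02, the call was lost. In DKO it was 5.53, 5.72 and 6.04 untreated and 5.94, 5.60, 6.03, 5.06 and 5.68 after DEN, a difference of 0.09 (SE 0.21, limma adjusted p = 0.800). The responses differed by -0.87 (SE 0.29, adjusted p = 0.0599), which was called in 6 of 28 alternative fits. Within set 1 they differed by -0.36 (adjusted p = 0.372).

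After DEN all knockout arrays of Gstm4 were below all WT arrays. The differences were -0.85 (SE 0.20, limma adjusted p = 0.00639) in DKO, -0.56 (SE 0.19, adjusted p = 0.0490) in RbKO, which 14 of 21 alternative fits lost, and -0.31 (SE 0.21, adjusted p = 0.503) in p53KO. With set effects removed, the group means were highest in DEN WT at 6.71, DEN p53KO at 6.40 and DEN RbKO at 6.14. DEN DKO at 5.85, untreated DKO at 5.76 and untreated WT at 5.75 followed. These 3 differed by less than the spread between their arrays. Within set 1 alone, untreated WT was at 6.08, as was DEN RbKO, above DEN DKO at 5.86 and untreated DKO at 5.76.

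Gstm6, a further mu class gene, was dim. Its mean of 3.62 was just above the filter at 3.33, it was 3.41 over the 20 arrays other than DEN WT, and 10 arrays were under the filter. Its values in DEN WT were 4.18, 4.37 and 4.10 in set 1 and 4.73 and 4.92 in set 2, against 3.77, 3.83 and 2.65 in untreated WT and 2.64 to 3.63 in DEN DKO. The WT response of 1.05 (SE 0.29) was called (limma adjusted p = 0.0404), as were -0.85 in RbKO (adjusted p = 0.0434) and -1.13 in DKO (adjusted p = 0.0124). Of the alternative fits, 13 of 19 lost the first call and 12 of 20 the second, and the third was lost within set 1 (adjusted p = 0.114). In p53KO the difference was not called (interval -1.65 to -0.35, adjusted p = 0.0934).

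Gstm2, which was at 7.02, 7.10 and 7.72 in untreated WT and 6.29 to 8.44 with a median of 7.04 in DEN WT, was called in none of the 11 comparisons. Its WT response was -0.18 (interval -0.86 to 0.50) and its DKO response 0.02 (interval -0.70 to 0.74). In untreated DKO it was at 6.53 to 6.88, below all untreated WT arrays, without a call (-0.52, limma adjusted p = 0.661). After DEN its differences from WT were -0.46 in p53KO, -0.80 in RbKO and -0.31 in DKO, with limma adjusted p = 0.556, 0.0902 and 0.612. The arrays of a group stood far apart, with 5.40 on the set 2 array of RbKO against 6.49 to 6.71 on the others, and 5.39 on 1 set 3 array of DKO.

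Of the alpha class, Gsta4, whose enzyme conjugates 4-hydroxynonenal and other products of lipid oxidation, lies on chr9:78191966-78209349. It was at 10.64 and 10.59 in set 1 and 9.46 in set 2 in untreated WT and at 10.38, 10.74, 10.70, 10.19 and 10.61 after DEN, a difference of 0.33 (SE 0.15, limma adjusted p = 0.249) that was -0.01 within set 1. In DKO it was at 10.49, 10.44 and 10.55 untreated, and all 5 DEN arrays were lower, at 10.38, 10.30 and 10.28 in set 1 and 9.68 and 9.91 in set 3, a difference of -0.27 (SE 0.16) that was not called (adjusted p = 0.250). After DEN it was lower in DKO than in WT, at -0.53 (SE 0.15, adjusted p = 0.0216), a call lost in 5 of 22 alternative fits, among them that within set 1 (-0.29, adjusted p = 0.0827). The differences in p53KO (-0.35, adjusted p = 0.259) and RbKO (-0.32, adjusted p = 0.144) were not called.

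Gsta3, on chr1:21240565-21265575, encodes an alpha class enzyme known to detoxify the epoxide of aflatoxin B1. It spanned the narrowest range of the 9 members, between 10.98 and 11.59 over all 25 arrays. The responses to DEN were -0.01 (interval -0.23 to 0.21) in WT and 0.15 (interval -0.09 to 0.38) in DKO. After DEN the differences from WT were -0.15 (interval -0.38 to 0.09) in p53KO, -0.03 (interval -0.24 to 0.17) in RbKO and -0.15 (interval -0.37 to 0.07) in DKO, all with limma adjusted p of 0.414 or more. All untreated DKO arrays lay below all untreated WT arrays. That difference of -0.31 (interval -0.56 to -0.05) was not called (limma adjusted p = 0.289).

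**Figure D4:**
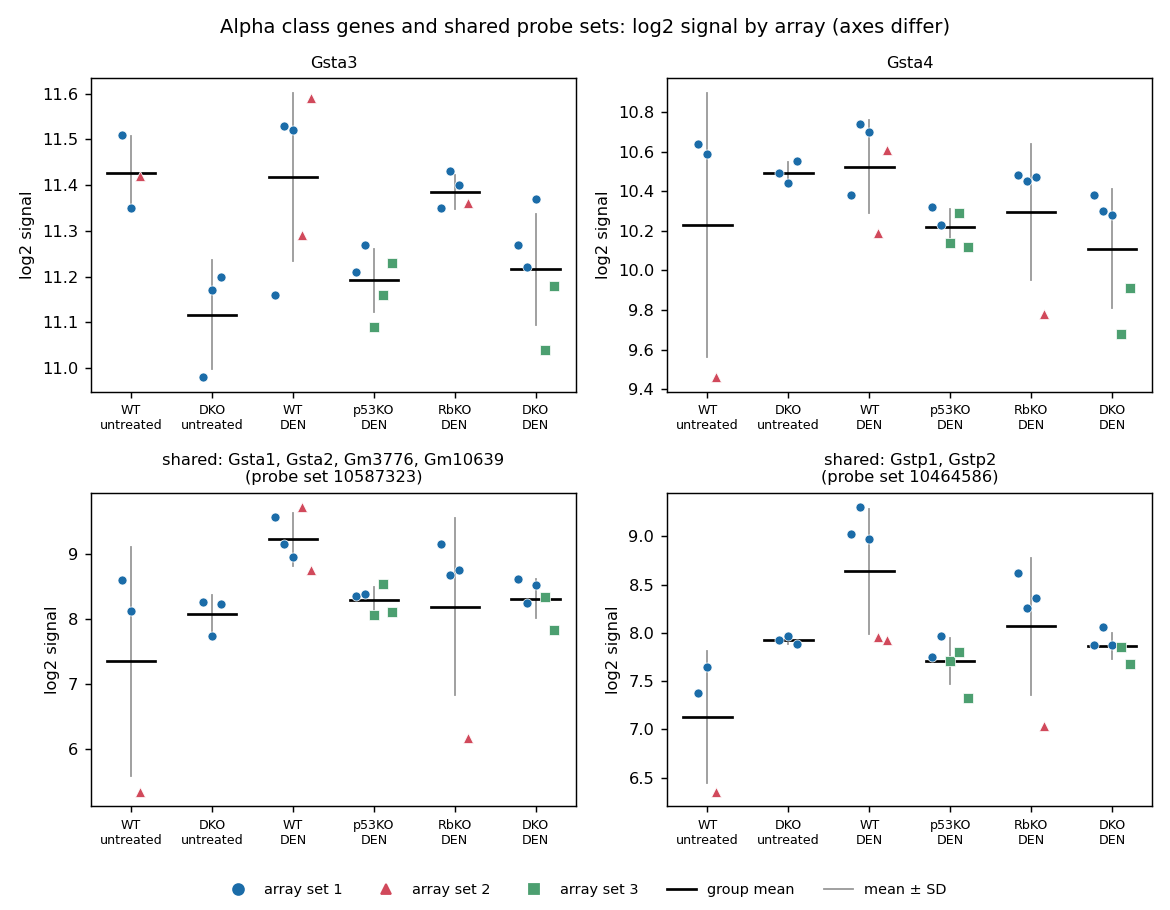
Log2 signal (y axis, with its own range in each panel) by group (x axis) of Gsta3 and Gsta4 and of 1 probe set each of the 2 shared kinds, with set, group mean and SD as in the plot of the pi class. The set 2 arrays of untreated WT (5.33) and DEN-treated RbKO (6.17) stand far below the other arrays on the probe set shared by Gsta2.

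The 4 probe sets shared by Gsta1, Gsta2, Gm3776 and Gm10639, the inducible alpha class genes and their near copies, rose after DEN in WT by 1.54 to 1.98, with limma adjusted p of 0.00336 to 0.00550 over all listed probe sets, of which 4.2% were called in this comparison. They correlated with each other at r of 0.982 or more and are not independent. On probe set 10587323 the untreated WT arrays were at 8.60 and 8.12 in set 1 and 5.33 in set 2, and the DEN WT arrays at 9.57, 9.15 and 8.95 in set 1 and 9.72 and 8.75 in set 2. The array at 5.33, untreated WT replicate 3, decided these calls. Without it the differences were between 0.909 and 1.28 and all 4 calls were lost (adjusted p = 0.0599 to 0.0972), whereas within set 1 3 of the 4 were called, at differences of 0.70 to 0.88.

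In DKO the same 4 probe sets differed by 0.29 to 0.34 after DEN (limma adjusted p = 0.566 to 0.597), where 21.3% of all listed probe sets were called. The responses of DKO and WT differed by -1.64 to -1.24 without a call (adjusted p = 0.0632 to 0.0880), where 10.3% were called. After DEN they were lower than in WT, at -1.27 to -0.97 in RbKO (adjusted p = 0.0263 to 0.0323) and at -1.43 to -1.03 in DKO (adjusted p = 0.0170 to 0.0324), where 11.6% and 11.9% of all listed probe sets were called. In p53KO -1.40 to -1.10 was not called (adjusted p = 0.0679 to 0.0926), where 1.53% were, but it was called on all 4 within set 1. The RbKO calls were lost without its set 2 array (replicate 4) and without either set 2 array of DEN WT (replicates 4 and 5), 2 of the 4 also without RbKO replicate 2 and 1 without RbKO replicate 3. In DKO the call of 10587339 was lost without DKO replicate 2, and that of 10595148 without DKO replicate 2 or 3 or DEN WT replicate 5. Without DEN WT replicate 3 all 4 were called in p53KO and for the difference between the responses.

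The 2 probe sets shared by Gstp1 and Gstp2 correlated with the probe set of Gstp1 alone at r of 0.916 and 0.920 over the 25 arrays, and at 0.902 and 0.908 after set effects were removed. On probe set 10464586 untreated WT was at 7.38, 7.65 and 6.35, DEN WT at 9.02, 9.30 and 8.97 in set 1 and 7.96 and 7.93 in set 2, untreated DKO at 7.93, 7.97 and 7.88, and DEN DKO between 7.68 and 8.06. The WT response was 1.59 (SE 0.12, limma adjusted p = 1.35e-08) and the DKO response 0.03 (interval -0.24 to 0.29). The difference between them was -1.57 (SE 0.18, adjusted p = 3.05e-05). The probe set of Gstp1 alone gave -0.54 in DKO.

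After DEN these 2 probe sets were lower than in WT, at -1.32 and -1.29 for p53KO, at -0.77 and -0.75 for RbKO, and at -1.20 and -1.18 for DKO (limma adjusted p of 0.000881 or less). DKO minus p53KO minus RbKO plus WT, which is 0 where the 2 single-gene effects add up on the log2 scale, was 0.87 and 0.89 (SE 0.16, adjusted p = 0.0226), where 0.513% of all listed probe sets were called. That call was lost within set 1, without DEN p53KO replicate 1 and without DEN RbKO replicate 4. Of the members, 0 of 9 were called there by limma and 4 had an unadjusted p under 0.05, where 0.426% of all genes were called. The 9 values, which share the same arrays, all lay above 0 over all arrays, with 0.93 for Gstp1 (limma adjusted p = 0.0710). Within set 1 the value of Gstm4 was -0.07.

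On the probe sets that stand for their genes, 0 of 9 members were called by limma between the knockout genotypes after DEN, while the second Gstm3 probe set was called for DKO against p53KO. Called genes made up 1.87% of all genes for DKO against p53KO, 1.03% for DKO against RbKO and 0.577% for p53KO against RbKO. The numbers of members at an unadjusted p under 0.05 in limma were 3, 1 and 2 in that order.

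The members moved together only in part. Over the 36 pairs of members the correlation of log2 signal across the 25 arrays, which share groups, after set effects were removed, was between -0.03 for Gstm2 with Gstm4 and 0.830 for Gstm1 with Gstm3, with a median of 0.548. The 3 genes most like Gstp1 by this measure were Bscl2 (r = 0.877), Ctsd (0.868) and Ldhb (0.852), and those most like Gstp3 were Abat (0.949), Msrb1 (0.940) and Sardh (0.937). Gstm1 was nearest to Rusc1, Gstm3 and Tpi1 (0.818 to 0.861), Gstm3 to Creg1, Aox1 and Gstm1 (0.830 to 0.859), Gstm4 to Nme1, Psma6 and Slc50a1 (0.851 to 0.878), and Gstm6 to Wrap73, Txnrd1 and Tmem184b (0.824 to 0.845). Gstm2 had Ypel3, Myh11 and Commd5 (0.733 to 0.775), Gsta3 had Atp8b5 (0.795), Gm6614 (0.769) and Ces1d, and Gsta4 had Chmp2a, Slc22a18 and Mtarc2 (0.870 to 0.891).

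The other genes of the pathway were described by fixed lists. Among 15 other glutathione transferase genes 0 were called in the WT response by limma, 7 had an unadjusted p under 0.05, and the median difference was -0.00231 against 0.494 for the 9 members and 0.0154 for all genes, and within set 1 it was 0.0657 against 0.172 for the members. After DEN 6 of these 15 genes were lower in RbKO than in WT and 5 in DKO, 4 had a lower response in DKO than in WT, and in p53KO 0 were called by limma, with an unadjusted p under 0.05 for 3. The first 3 shares over all genes were 6.13%, 9.14% and 8.54%. Of 16 genes of glutathione supply, 2 rose in WT, Gss (glutathione synthetase, 0.52, limma adjusted p = 0.0232) and Gsr (glutathione reductase, 0.53, adjusted p = 0.0434), where 2.08% of all genes were called higher. The median WT response of the 16 was 0.154 over all arrays and -0.016 within set 1. In DKO 5 of them fell, led by Gss (-0.98, adjusted p = 2.05e-05), where 16.5% of all genes fell. The response of Gss in DKO was lower than that in WT (SE of the difference 0.19, adjusted p = 6.91e-05), and 6 of the 16 genes had a lower and 1 (Chac2) a higher response. In untreated DKO, Gclc, the catalytic subunit of the first enzyme of glutathione synthesis, was higher by 0.69 (adjusted p = 0.0207).

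Of 13 peroxidase, thioredoxin and glutaredoxin genes, 2 rose in WT after DEN, Txnrd1 (thioredoxin reductase, 0.64, limma adjusted p = 0.00291) and Srxn1 (sulfiredoxin, 0.96, adjusted p = 0.0146), both known Nrf2 targets. The share of all genes called higher there was 2.08%. The median WT response of the 13 was 0.178 over all arrays and 0.273 within set 1. After DEN 6 of the 13 were lower in DKO than in WT, where 9.14% of all genes were, among them Glrx5, Txnrd1, Srxn1 and Gpx4 (-0.94, -0.65, -1.13 and -0.77). Of 13 genes of conjugate export and breakdown 0 were called in WT by limma, and 4 of them had an unadjusted p under 0.05. In DKO 4 fell after DEN, where 16.5% of all genes fell, namely Anpep (-1.26), Abcc3 (-0.88), Acy3 (-0.51) and Abcc2 (-0.58), the last being the exporter of conjugates into bile.

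Of 16 regulators, Nfe2l2, the gene of Nrf2, was the 1 called in the WT response, at 0.71 (SE 0.13, limma adjusted p = 0.00158), where 3.99% of all genes were called. Its response in DKO minus that in WT was -0.69 (SE 0.18, adjusted p = 0.0177), and after DEN it was lower in DKO than in WT, at -0.59 (adjusted p = 0.00326). Nr1i3, the gene of CAR, was lower than in WT after DEN, at -1.29 (limma adjusted p = 0.00162) in DKO and -0.79 (adjusted p = 0.0304) in RbKO. So was Nr1i2, the gene of PXR, at -0.76 (adjusted p = 0.00365) in DKO and -0.66 (adjusted p = 0.00725) in RbKO. Of the 16 regulators, 5 were called lower than in WT after DEN in DKO, 4 in RbKO and 1 in p53KO, and 1 was called higher in RbKO. Of all genes, 9.14%, 6.13% and 1.07% were called lower in these knockouts. The median WT response of the 16 regulators was -0.082 over all arrays and -0.197 within set 1. Whether the levels of these regulators bear on those of the members was not tested.

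**Figure D5:**
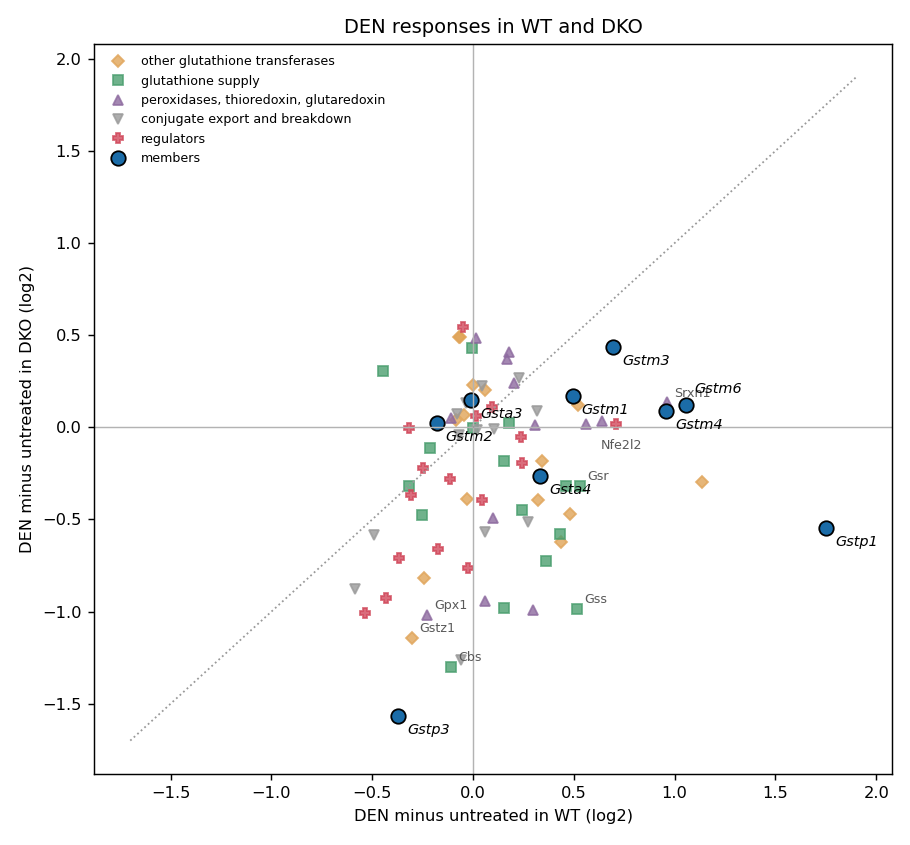
Difference in log2 signal between DEN-treated and untreated livers in WT (x axis) and DKO (y axis), with 1 point for each member and each gene of the 5 pathway lists. The dotted line marks equal responses. Gstp1 lies farthest below it among the members, at 1.75 in WT and -0.54 in DKO.

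Genes of other liver cells moved with some of these comparisons. In DKO after DEN, 5 of 6 endothelial, 5 of 6 stellate cell and matrix and 4 of 6 neutrophil markers fell. So did 2 of 8 macrophage, 2 of 6 cholangiocyte and progenitor and 2 of 2 erythroid markers, but 0 of 2 lymphocyte markers. Of all genes, 16.5% were called lower there. The mean of the endothelial markers was 6.98 to 7.11 on the untreated and 6.12 to 6.35 on the DEN arrays. The neutrophil markers had means of 5.83 to 6.58 on the untreated DKO arrays against 4.37 to 4.81 on the untreated WT arrays. Of them 3 of 6 were called higher, where 1.11% of all genes were called in either direction. After DEN, 4 of 6 endothelial markers were lower in DKO than in WT, where 9.14% of all genes were. The same held for 1 of 6 stellate cell and matrix, 1 of 6 neutrophil, 1 of 6 cholangiocyte and progenitor and 1 of 2 erythroid markers. Of 8 macrophage markers 0 were called there by limma and 2 had an unadjusted p under 0.05. Of 2 lymphocyte markers 0 were called. Of the 6 cholangiocyte and progenitor markers tested 0 were called in the WT response by limma and 1 had an unadjusted p under 0.05. Of 7 hepatocyte genes Hnf4a fell in that response (-0.76, limma adjusted p = 0.0309), where 3.99% of all genes were called in either direction. In DKO after DEN 3 of the 7 hepatocyte genes fell and 1 rose, and their mean was 11.39 to 11.43 on the untreated and 10.95 to 11.09 on the DEN arrays. The part of these cell types in the values of the members was not tested.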

How the data were processed

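The deposited values are log2 signals of 35555 Affymetrix probe sets on 25 arrays, made by the authors with RMA in Affymetrix Expression Console 1.1 per the submitters' processing notes. Whether all arrays were normalized in 1 run and the genome build are not given in the sources used here, and no read depth exists for arrays, whose number limits the precision. RNA was extracted with RNeasy and amplified with WT-Ovation Pico, per the labels' protocols.

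Probe sets were named from the platform annotation, in which 21789 probe sets had 1 symbol, 1620 several and 12146 were not listed. Each gene was read by its probe set with the highest mean, and 3987 genes with a mean under the 20th percentile (3.33) were left out. limma 3.58.1 (lmFit and eBayes, R 4.3.3) was fitted to all 25 arrays with 6 group means and the set, two-sided, and p-values were adjusted by Benjamini-Hochberg over 15951 genes in each of 11 comparisons. SE and 95% intervals are limma's. Shared probe sets were fitted among 18502 listed probe sets. The fit was checked on simulated data.

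The members and gene lists were chosen with earlier results of these data known. All 10 members are named, and of each list up to 4 genes in order of p in the comparison described, with Chac2, Gclc, Nr1i2, Nr1i3 and Hnf4a singled out after their values were seen. The level of the p53 gene was not analysed here. Alternatives were the set term left out or as a random block (statmod 1.5.0), set 1 alone, no set 2, other filters, quantile normalization, centring, Xist as a covariate, only the groups compared, each array left out, and recurring title numbers as a block.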

Additional observations from a re-analysis of the deposited data

Results flagged for a closer look

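In DEN-treated RbKO, the set 2 array (replicate 4) passed Dixon's test for an outlying low value at the 95% level on 4 probe sets. Its log2 signal was 9.78 for Gsta4, where the nearest array was at 10.45, and 5.40 for Gstm2, where the nearest was at 6.49. On the probe sets shared by Gsta1, Gsta2, Gm3776 and Gm10639 it was 6.17 (nearest 8.68) on 10587323 and 6.14 (nearest 8.27) on 10587339. On the other 2 of these shared probe sets it was as low, at 6.36 (nearest 8.63) on 10587331 and 6.34 (nearest 8.24) on 10595148, without passing that test. Groups of 4 or 5 arrays were tested in this way 64 times, and chance alone marks about 1 in 20.

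The responses to DEN of DKO and WT differed by the test of the difference itself for Gstp1, at -2.30, and for the 2 probe sets shared by Gstp1 and Gstp2, at -1.59 and -1.57.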

How the results depend on the processing

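Within set 1 the numbers in the sample titles run on from group to group, and the labels do not say what they stand for. Of them 3 recur on set 3 arrays of p53KO, 2 of which join p53KO to DKO. After group and set means were removed, these 2 pairs of arrays correlated at r = 0.205 and 0.196 over genes. With these numbers as a replicate block, chosen after the data were seen, members called for DKO against p53KO were 0, as without it. Other pairs of groups share fewer than 2 numbers.

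Of 2212 values of a member in a comparison under an alternative, 2089 kept their side of the threshold without a called value changing sign, 77 lost a call, 46 gained one and 0 changed sign with a call. Alternatives for the shared probe sets were also chosen after the data were seen. The cause of the changes below was not tested.

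Members called by limma in the WT response (4) were 2 without the set term and 1 in a fit of the groups compared alone. In set 1 alone, those called in the WT response were Gstp1 and Gstm3 as higher and Gstp3 as lower, where 1747 of 15951 genes were called in either direction. In the DKO response (2) they were 1 without the set term, as a random block or with Xist. For the difference between the responses (1) they were 2 with a random block or a filter at the 40th percentile and 4 after centring, which moves the median of all genes by -0.124 there and by -0.100 in the DKO response. For untreated DKO against WT (0) they were 2 in set 1 alone and without set 2, 1 with the mean of all probe sets or centring and 3 in the groups alone. For p53KO against WT (2) they were 4 without the set term or with a random block and 1 without set 2. For RbKO against WT (6) they were 2 without the set term, 3 in set 1 alone and 2 without set 2. For DKO against WT after DEN (7) they were 4 in the groups alone, and for DKO against p53KO (0) they were 1 without set 2 and 1 with the mean of all probe sets. Over all genes, calls in either direction numbered 142 in the WT response without the set term. In DKO there were 2720 without it, 3122 with a random block and 2831 with Xist. For the difference, a random block gave 1291 and centring 2391. Untreated livers had 891 in set 1 alone and 515 without set 2. p53KO had 1256 without the set term, 516 with a random block and 194 without set 2. RbKO had 390, 532 and 193 in the order above. DKO against p53KO had 689 without set 2.

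Of the 6 shared probe sets, those called in the WT response (6) were 2 without the set term. For the difference between the responses (2) they were 0 without the set term and 6 after centring. For p53KO against WT (2) they were 6 in set 1 alone. For RbKO against WT (6) they were 0 without the set term and 2 in set 1 alone, without set 2 or with Xist. For DKO against WT (6) they were 0 without the set term. For p53KO against RbKO (0) they were 2 in set 1 alone or with Xist, and for additivity (2) they were 0 without the set term, in set 1 alone and without set 2.

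With each array left out in turn, members called ranged from 1 to 5 in the WT response, 1 to 2 in DKO, 1 to 3 for the difference between the responses, 0 to 1 in untreated livers, 1 to 2 in p53KO, 3 to 7 in RbKO, 7 to 7 in DKO against WT and 0 to 2 for additivity. Shared probe sets called ranged from 2 to 6 in WT, 2 to 6 for the difference between the responses, 2 to 6 in p53KO, 2 to 6 in RbKO, 4 to 6 in DKO and 0 to 2 for additivity. Set 2 holds 1 untreated WT and 1 RbKO array, which limits what can be said of these arrays.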
